A study of Bos taurus with 4 samples.

Results

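Splicing factor and heterogeneous nuclear ribonucleoprotein (hnRNP) transcripts were compared between spermatozoa of low-fertile and high-fertile Murrah buffalo bulls. Members were all non-control probes whose gene name on the array began with SRSF, SFRS, SF3A, SF3B, SNRP, HNRNP, HNRP, U2AF, LSM or PRPF, with a number following SRSF, SFRS, SF3A, SF3B, LSM and PRPF. This rule took 77 of 32429 gene names and 228 of 51282 probes, in 7 families: 20 hnRNP genes, 13 PRPF, 12 SNRP, 10 SR (SRSF and SFRS), 10 LSM, 9 SF3 and 3 U2AF genes. Total RNA of spermatozoa selected on Percoll, a density gradient used to hold back other cells, was labelled with Cy3 from an oligo-dT primer and hybridised to a 1-colour Agilent array designed for cattle, so cattle probes read buffalo RNA. Each group held 2 pools, and each pool held equal amounts of RNA from 2 bulls. High-fertile bulls had adjusted field conception rates over 1 SD above the mean of the bulls rated, and low-fertile bulls over 1 SD below it. All were breeding bulls whose age was not given in the sources used here, nor which bull went into which pool, so the pool was the replicate (n = 2 per group) and the bulls within it cannot be separated.

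Introns are removed from nuclear transcripts by the spliceosome, which is built from small nuclear ribonucleoproteins (snRNPs). Each snRNP holds a small nuclear RNA in a ring of Sm or LSm proteins. U2AF and the SF3A and SF3B complexes select the 3′ end of an intron and its branch point, PRPF proteins carry the U4, U5 and U6 snRNPs, and SR and hnRNP proteins bind exons and introns and shift the choice of splice sites. Mature spermatozoa have condensed chromatin and are almost silent in transcription, and their RNA is largely carried over from earlier germ cell stages.

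The probes on which the results turn are shown here as the scanner files give them, 5′ to 3′, in the sense of the transcript. The files give coordinates in the cattle build Btau_3.1 but not exon or coding positions, so a probe is placed by its coordinates, and a probe whose coordinates span far more than its 60 bases crosses an intron. The first set is of Sm proteins, in which every tested SNRPE and SNRPD1 probe was lower in low-fertile pools. The SNRPE probe at chr16:629173-631624 crosses an intron and ends in TAG, in capitals. The other two SNRPE probes, at chr16:631717-631775 and chr16:631722-631781, overlap by 55 bases; they are shown as the same 30-base stretch with AATAAA, the letters of a polyadenylation signal, in capitals. They differ at C26T and C60T, counted from the 5′ end of the first of the pair. The SNRPD1 probe lies at chr24:35733058-35733117 on the minus strand.
SNRPE, intron-crossing probe: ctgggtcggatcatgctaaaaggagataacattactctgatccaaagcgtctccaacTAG
SNRPE, first overlapping probe, bases 25 to 54: tcaccagatgacAATAAAtgctgtgggact
SNRPE, second overlapping probe, bases 20 to 49: ttaccagatgacAATAAAtgctgtgggact
SNRPD1: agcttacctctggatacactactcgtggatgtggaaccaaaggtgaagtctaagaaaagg

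The second set holds the first 30 bases of the single probes of SF3A3 (chr3:115176502-115176561, plus strand), SRSF9 (chr17:66029955-66030014, minus strand) and PRPF4 (chr8:107860074-107860133, plus strand), the member genes with the largest falls by their brightest probe. Nothing in them is capitalised.
SF3A3: tagcatgcatcttgtagaaacaaggcatgc
SRSF9: gatcagcagttactgtgactgagtcggccc
PRPF4: gtttggcatcctttgttaccccaaaactag

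The third set holds genes whose probes moved differently along the transcript, each given as an upstream and a downstream probe except HNRNPA1, which is given by its 3′-most probe alone. PRPF6 lies on the minus strand, with probes at chr13:54535184-54535664 and chr13:54513957-54514411. SFRS18 lies on the plus strand, with probes at chr9:52559248-52559554 and chr9:52559556-52559615, and TGA is in capitals in the downstream one. The HNRNPA1 probe (minus strand) lies at chr5:28631289-28631348. HNRNPK (minus strand) is shown by an intron-crossing probe at chr8:81415892-81416447 and by 30 bases shared by its other two probes, the first of which lies at chr8:81411740-81411799. SRSF3 (minus strand) is shown by probes at chr23:10809980-10810039 and chr23:10807028-10807087, and HNRNPM (plus strand) by probes at chr7:15555729-15555788 and chr7:15558561-15558620, with AATAAA in capitals in the last.
PRPF6, upstream: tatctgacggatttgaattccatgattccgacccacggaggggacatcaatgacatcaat
PRPF6, downstream: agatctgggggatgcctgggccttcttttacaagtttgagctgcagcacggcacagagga
SFRS18, upstream: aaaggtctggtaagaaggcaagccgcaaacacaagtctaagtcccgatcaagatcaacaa
SFRS18, downstream, first 30 bases: ccctccccgtcgtaaacgcTGAggaatgat
HNRNPA1, 3′-most, first 30 bases: ggtaccagataaagttatagatgggaatga
HNRNPK, upstream: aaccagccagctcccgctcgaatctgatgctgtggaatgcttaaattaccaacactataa
HNRNPK, downstream, bases shared by its other two probes: ctggcatctattcagagcagtgtgcagaat
SRSF3, upstream: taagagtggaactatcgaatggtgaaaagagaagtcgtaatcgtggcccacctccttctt
SRSF3, downstream, first 30 bases: gacacaaaggtgtaattctctatggtttga
HNRNPM, upstream: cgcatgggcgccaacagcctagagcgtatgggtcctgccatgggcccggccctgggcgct
HNRNPM, downstream, bases 31 to 60: tatgactttgatAATAAAtaccagttcctg

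AATAAA was in 31 of the 228 member probes (13.6%) and in 8.35% of all probes, and its reverse complement TTTATT in 10 member probes and in 3.30% of all probes. Of the 10 tested member probes with AATAAA 4 were lower in low-fertile pools, with a median change of -0.26 on the log2 scale, and of the 72 tested ones without it 19 were lower, with a median of -0.18. Of all tested probes 17.6% were lower.

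The share of member probes well above background, as marked by the scanner software, was 40.8% and 42.5% on the high-fertile arrays and 43.9% and 21.5% on the low-fertile arrays. Over all 51282 probes 23271, 23228, 25642 and 13033 were so marked, in the same order, so the second low-fertile array was the dimmest for members and for the array as a whole. Each of the 7 families had its lowest share on that array, from 12% of SF3 probes to 42.9% of U2AF probes. LSM probes had their highest share, 47.8%, on the first low-fertile array, against 26.1% on both high-fertile arrays. A probe was tested where both pools of one group, or of both, read it above background, which left 82 member probes in 46 genes. Of these, 35 probes entered through the high-fertile group alone and 0 through the low-fertile group alone, so a fall was easier to test than a rise, and results are also given for probes above background on all 4 arrays (47 probes, 32 genes). Another 31 genes had no tested probe, among them SRSF1, SRSF2, PRPF8 and HNRNPA2B1, and 109 member probes were well above background on no array.

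**Figure D1:**
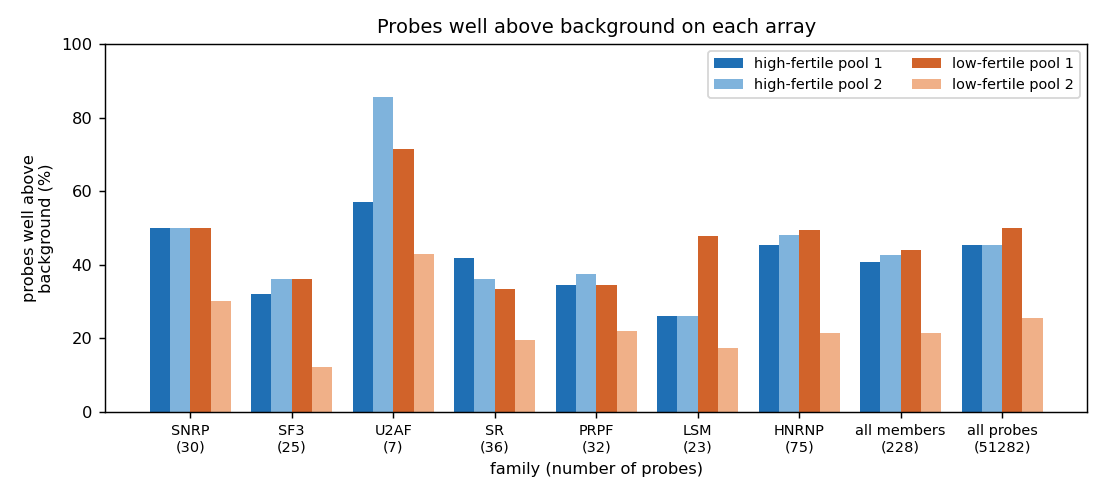
Share of probes well above background (percent, y axis) on each of the 4 arrays, for the 7 families, all 228 member probes and all 51282 probes (x axis, number of probes in brackets); each bar is 1 array. The second low-fertile array has the lowest bar in every family, with 21.5% of member probes against 40.8% to 43.9% on the other arrays.

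The sperm label was checked against marker genes. Of 19 sperm markers on the array 8 were tested and 6 were well above background on no array; ODF1 and ACR, which encode an outer dense fibre protein and the acrosomal protease acrosin, were above background on all arrays, whereas AKAP4 and SMCP, of the fibrous sheath and the mitochondrial capsule, were above it on none. PRM1, a protamine, was above background on all arrays and higher in low-fertile pools (0.67, adjusted p = 0.0231 in limma), the 1 sperm marker past the threshold, and PRM2 was above background on 1 array. The summed signal of the sperm list was 1120 and 956 on the high-fertile arrays and 1119 and 907 on the low-fertile ones. Leukocyte markers summed to 27820 and 27408 against 32236 and 31246, with 10 of 12 tested and with most of the sum from LYZ, PTPRC and CD3D; CD3E and CD8A were well above background on no array. Of the tested leukocyte genes PTPRC was higher (0.78) and CD3D lower (-1.05). Epithelial markers summed to 1100 and 1142 against 1194 and 1173 (7 of 9 tested, 0 called by limma, 2 at an unadjusted p under 0.05), and red cell markers to 374 and 525 against 449 and 458 (4 of 7 tested, 1 higher). These levels were read in RNA of sperm that had passed the Percoll gradient, and the part of other cell types in the results was not tested. In pooled RNA a change in the number of cells and a change in RNA per cell cannot be told apart, and nor can group and slide row, since the groups lay in different rows of 1 slide.

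By their brightest probes, SNRPE, SNRPD1 and SNRPN of the snRNP core, SF3A3 of the U2 snRNP, PRPF4 of the U4/U6 snRNP, the SR proteins SRSF9 and SFRS18, and HNRNPK, HNRNPC and HNRNPUL1 were lower in low-fertile pools. PRPF6 of the tri-snRNP and HNRNPA3 were higher. These 12 genes of 46 (26.1%) passed an adjusted p of 0.05 in limma, and 25.9% of all 16549 genes tested the same way did. Of the member genes 10 were lower and 2 higher, against 16.3% lower and 9.6% higher of all genes. The median change of the 46 genes was -0.15 on the log2 scale and that of all genes 0.01. Among the 32 genes above background on all arrays 9 were lower and 2 higher, with a median of 0.11, against 9.32% lower, 13.2% higher and a median of 0.15 among all 10588 such genes. In 13 of the 32 both low-fertile arrays lay below both high-fertile arrays and in 8 above, against 24.3% and 46.2% of all such genes. Without the second high-fertile pool, 6 member genes were lower and 2 higher, and without the first 8 were lower and 1 higher. Without the second low-fertile pool, whose array was the dimmest, 10 were lower and 3 higher. The split moved with the scaling: with arrays scaled to the spike-in probes, which shifted the median of all tested probes to -0.38, 21 member genes were lower and 1 higher, and after correction for probe GC content 7 were lower and 4 higher.

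**Figure D2:**
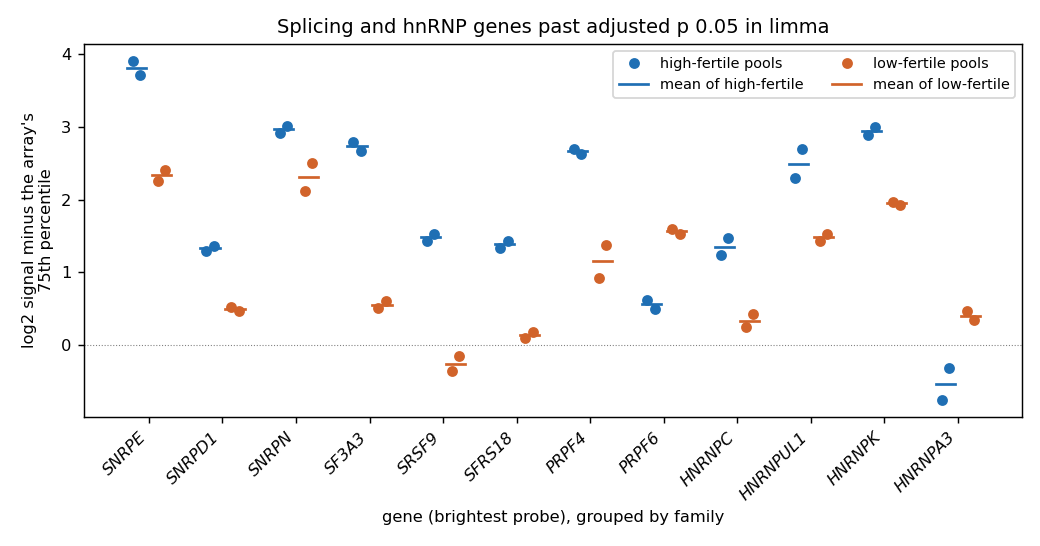
Normalized signal (log2 signal minus the 75th percentile of its array, y axis) of the brightest probe of the 12 member genes past an adjusted p of 0.05 in limma; points are the 2 high-fertile (blue) and 2 low-fertile (orange) pools and lines the group means. The genes were picked by that threshold on these same arrays, which favours pools that lie close together and groups that do not overlap. The low-fertile pools are lower except in PRPF6 and HNRNPA3.

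SNRPE, SmE of the ring that closes around the snRNA, was lower in low-fertile pools by all 3 of its probes. Its brightest probe had a normalized signal, the log2 signal minus the 75th percentile of its array, of 3.91 and 3.71 on the high-fertile and 2.26 and 2.41 on the low-fertile arrays, a change of -1.48 ± 0.16 (SE) or 2.78-fold lower (adjusted p = 0.0037 in limma). The overlapping probe, which begins 5 bases upstream, read 3.51 and 3.64 against 1.69 and 1.79 (-1.84 ± 0.15, adjusted p = 0.0023). At the intron-crossing probe the values were 1.79 and 1.90 against 0.54 and 0.24 (-1.45 ± 0.17, adjusted p = 0.0043). The groups were apart at each probe, by more than the spread between pools of a group, and the 3 changes lay between -1.84 and -1.45. After GC correction the brightest probe changed by -0.65 (adjusted p = 0.0486).

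SNRPD1, SmD1 of the same ring, was also lower at all 3 probes before GC correction. Its brightest probe read 1.29 and 1.37 on the high-fertile and 0.52 and 0.46 on the low-fertile arrays (-0.84 ± 0.14, 1.79-fold lower, adjusted p = 0.0118 in limma). The call was lost without either high-fertile pool, with an adjusted p of 0.054 without the first and 0.069 without the second, and with normexp background correction the change was -0.37. Normexp was run with a constant added to every signal, which by itself makes log2 changes smaller. The 3′ probe read -0.26 and -0.22 against -0.996 and -0.85 (-0.68, adjusted p = 0.0231). An intron-crossing probe read -0.65 and -0.62 against -1.28 and -2.11, was marked above background on neither low-fertile array, and was at least 2.08-fold lower, which is also its measured fold (adjusted p = 0.0460). The low-fertile arrays lay below the high-fertile ones at each SNRPD1 probe as normalized, and after GC correction the changes were -0.72 at the brightest, -0.95 at the intron-crossing and 0.14 at the 3′ probe. The intron-crossing and 3′ probes entered the test through the high-fertile group alone.

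The other Sm genes moved less. SNRPN, the SmB-like protein of an imprinted locus, read 2.91 and 3.02 against 2.12 and 2.50, a fall of 1.58-fold that lay at the threshold (-0.66 ± 0.18, adjusted p = 0.0494 in limma). Its call was lost without either high-fertile pool (0.131 and 0.183) or the first low-fertile pool (0.124), with outlier spots kept (0.0504) and by the median of its probes (0.096), and its change was 0.17 after GC correction. SNRPB, which encodes SmB, read -0.04 and -0.25 against -0.93 and -0.59 (-0.62 ± 0.18, adjusted p = 0.0590), and the second low-fertile array was not above background. SNRPG, SmG, read 3.49 and 3.77 against 3.22 and 3.37 (-0.33 ± 0.17, adjusted p = 0.189), with the groups apart but close. For SNRPD2, SmD2, the groups overlapped, with 0.75 and 0.97 against 0.90 and 1.07 (0.12 ± 0.16, adjusted p = 0.599). No probe of SNRPF or SNRPD3 was above background on any array. So of the 8 Sm genes, 3 were lower, 3 did not pass and 2 could not be read. Over the 12 SNRP genes, 8 were tested, 3 were lower and 0 higher in limma (4 and 0 at an unadjusted p under 0.05), and the median change was -0.48. Of all genes tested 16.3% were lower and 9.6% higher. SNRPA, of the U1 snRNP, and SNRPB2, of the U2 snRNP, changed by 0.27 and -0.23 and did not pass (adjusted p = 0.444 and 0.285), and SNRPA1 and SNRPC had no tested probe.

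SF3A3, a subunit of SF3A, which helps to dock the U2 snRNP at the branch point, showed the largest fall of the 46 tested member genes by brightest probe. It read 2.79 and 2.68 on the high-fertile arrays and 0.51 and 0.61 on the low-fertile arrays, 4.52-fold lower (-2.17 ± 0.15, adjusted p = 0.0022 in limma). All 4 values lay above background and the pools of each group were nearly equal; with normexp background correction the change was -1.49. It has 1 probe, so no other stretch of the transcript was read. Its partners SF3A1 and SF3A2 were above background on the first low-fertile array only and were not tested.

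The SF3B complex holds the branch point adenosine. Of 5 tested genes named SF3B, 0 passed the threshold in limma, and 2 had an unadjusted p under 0.05, both lower. Of all genes tested 25.9% passed. Subunits of the complex under other names are not counted here. SF3B1, its scaffold, read 0.16 and -0.13 against 0.16 and 0.28 (0.20 ± 0.17, adjusted p = 0.405 in limma), and SF3B4 read 0.97 and 1.00 against 0.76 and 1.04 (-0.09 ± 0.16, adjusted p = 0.711). The groups overlapped in both. SF3B3 read -0.31 and 0.25 against -0.51 and -0.83 (-0.64, adjusted p = 0.101), and SF3B5 0.47 and 0.16 against -0.09 and -0.60 (-0.67, adjusted p = 0.0826). In both of these genes the low-fertile arrays lay lower, but the second low-fertile array was not above background. SF3B5 changed by 0.21 after GC correction, and passed among others with normexp (-0.36, adjusted p = 0.0161) and with spike-in scaling (0.0460). SF3B3 changed by -0.09 with normexp and passed with spike-in scaling (0.0483). SF3B14, now SF3B6, which touches the branch point, changed by -0.27 (adjusted p = 0.337), and SF3B2 was above background on no array. U2AF1 and U2AF2 form the dimer that reads the 3′ splice site, its AG and its pyrimidine tract. U2AF1 read 1.12 and 0.74 against 0.41 and 0.04, with the groups apart (-0.70 ± 0.21, adjusted p = 0.0614). It passed in 6 of 18 alternatives, for example with only probes above background on all 4 arrays (adjusted p = 0.0264) and by the median of its probes (-0.96, 0.0171), and its adjusted p ranged from 0.0171 to 0.299. The brightest U2AF2 probe read 7.85 and 7.67 against 7.32 and 7.41 (-0.39 ± 0.15, adjusted p = 0.110), whereas an intron-crossing U2AF2 probe changed by 0.17 (adjusted p = 0.449). Both genes had an unadjusted p under 0.05 at their brightest probe. U2AF1L4, a U2AF1-like gene, was above background on 1 array.

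PRPF4 and PRPF6, both proteins of the U4/U6.U5 tri-snRNP, moved in opposite directions by their brightest probes. PRPF4, part of the U4/U6 di-snRNP, read 2.70 and 2.63 on the high-fertile and 0.93 and 1.38 on the low-fertile arrays, 2.86-fold lower (-1.51 ± 0.20, adjusted p = 0.0056 in limma). PRPF6, which bridges U5 to U4/U6, read 0.61 and 0.50 against 1.60 and 1.52, 2.01-fold higher (1.01 ± 0.14, adjusted p = 0.0075). In each gene the groups were apart. The PRPF6 change was 0.58 with normexp and 0.63 with spike-in scaling, and the call was lost by the median of its probes (0.12, adjusted p = 0.619). Its upstream probe gave the opposite, with -0.99 and -0.99 against -1.84 and -1.68, and was marked above background on neither low-fertile array, at least 1.71-fold lower, which is also its measured fold (adjusted p = 0.0165). The other 5 tested PRPF genes did not pass. PRPF19, a ubiquitin ligase of the active spliceosome, read 0.67 and 0.61 against 1.06 and 1.25 (0.52 ± 0.15, adjusted p = 0.0553), and PRPF31, a U4/U6 protein, read -0.72 and -0.40 against -0.23 and 0.28 (0.59 ± 0.23, adjusted p = 0.112). PRPF3, the partner of PRPF4, changed by 0.03 at its brightest probe (adjusted p = 0.896), with the groups overlapping, and by -0.80 at another (adjusted p = 0.0336), which was tested through the high-fertile group alone.

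Few LSM genes could be read. LSM2 to LSM7 join U6 or, with LSM1, a ring that starts mRNA decay. LSM6 read 0.27 and 0.39 against 0.52 and 0.84 (0.35 ± 0.17, adjusted p = 0.188 in limma) and LSM7 0.92 and 0.31 against 0.65 and 0.93 (0.18 ± 0.25, adjusted p = 0.617), with the LSM7 groups overlapping. By the median over all its probes, tested or not, LSM7 changed by 1.09 (adjusted p = 0.0341 in limma). The brightest LSM6 probe is placed on another chromosome than its other two tested probes, which changed by 0.02 and -0.02. LSM1 to LSM5 had no tested probe; LSM1 and LSM4 were above background on the first low-fertile array only. In the family 3 of 10 genes were tested and 0 were called by limma, with 0 also at an unadjusted p under 0.05. Of all genes tested 25.9% were called, so 0 of 3 says little. The tested changes ran from -0.24 to 0.35.

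**Figure D3:**
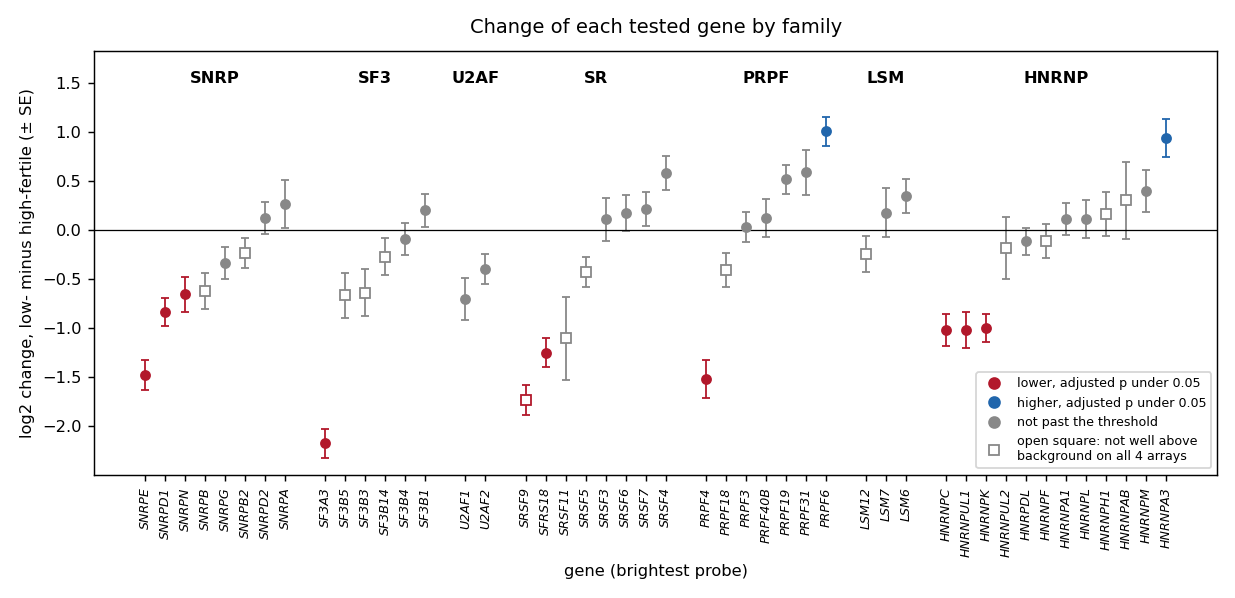
Log2 change, low-fertile minus high-fertile, with its SE (y axis) of the brightest probe of each of the 46 tested genes, grouped by family (x axis); red and blue mark adjusted p under 0.05 in limma, and open squares probes not above background on all 4 arrays. Changes run from -2.17 (SF3A3) to 1.01 (PRPF6).

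Among SR proteins, which bind exonic enhancers through RNA recognition motifs and carry arginine-serine repeats, 2 of 8 tested genes were lower and 0 higher in limma (4 and 1 at an unadjusted p under 0.05). The 25% of SR genes past the threshold is near the 25.9% of all genes tested. SRSF9 read 1.43 and 1.53 on the high-fertile arrays and -0.36 and -0.16 on the low-fertile arrays, 3.33-fold lower (-1.73 ± 0.15, adjusted p = 0.0027 in limma); the second low-fertile array was not above background, so the probe was tested through the high-fertile group alone. Its change was -0.91 after GC correction and -0.92 with normexp background correction, and the call was kept in both. SFRS18, an SR-related protein, read 1.33 and 1.44 against 0.09 and 0.18 at its brightest probe, 2.38-fold lower (-1.25 ± 0.14, adjusted p = 0.0043). In both genes the groups were apart. The SFRS18 probe whose coordinates start next to the end of that one gave the opposite, with 0.21 and -0.18 against 0.87 and 1.06, 1.93-fold higher (0.95 ± 0.19, adjusted p = 0.0192). By current symbol this probe is named PNISR, whereas the brightest one is still named SFRS18. The other 4 probes of SFRS18 were not tested, and with normexp its brightest probe changed by -0.62. By the median of its probes the change of SFRS18 was 0.37 and the call was lost (adjusted p = 0.487 in limma). SRSF4 read -0.11 and -0.08 against 0.66 and 0.33 (0.58 ± 0.17, adjusted p = 0.0566) and SRSF11 -0.63 and -0.72 against -1.12 and -2.44 (-1.10 ± 0.42, adjusted p = 0.108). The remaining brightest probes, of SRSF3, SRSF5, SRSF6 and SRSF7, changed by -0.43 to 0.22 and did not pass.

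The hnRNP family had 4 of 12 tested genes past the threshold, 3 lower and 1 higher, with a median change of 0.00. Of all genes tested 25.9% passed, 16.3% lower and 9.6% higher. HNRNPK, which binds C-rich RNA, read 2.89 and 3.0 on the high-fertile and 1.97 and 1.93 on the low-fertile arrays, 1.99-fold lower (-0.996 ± 0.14, adjusted p = 0.0074 in limma). The probe that shares 31 bases with it read 2.47 and 2.58 against 0.63 and 1.13 (-1.65 ± 0.21, adjusted p = 0.0053). Upstream, the intron-crossing probe was not lower, with 1.47 and 1.30 against 1.60 and 1.58 (0.20 ± 0.15, adjusted p = 0.344). The falls of HNRNPK were thus read from 1 stretch, downstream of that probe.

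HNRNPC, which binds U tracts of nascent transcripts, read 1.24 and 1.47 against 0.25 and 0.42 at its brightest probe, 2.03-fold lower (-1.02 ± 0.16, adjusted p = 0.0102 in limma). Its other 3 tested probes changed by -0.54 (adjusted p = 0.0615), -0.22 (0.415) and 0.04 (0.871), and the brightest probe by -0.20 after GC correction and -0.53 with normexp; the call was lost by the median of its probes (-0.23, 0.453) and after GC correction, and without the second high-fertile pool the adjusted p was 0.058. HNRNPUL1, a nuclear RNA-binding protein of the hnRNP U type, read 2.30 and 2.69 against 1.44 and 1.52 (-1.02 ± 0.18, adjusted p = 0.0144). The groups were apart at the brightest probe of both genes. The other HNRNPUL1 probes changed by -0.18 and 0.02 and overlapped, and the call was lost without the second high-fertile pool (0.066), by the median of its probes (-0.08, 0.778) and after GC correction (-0.57, 0.089). HNRNPA3, a relative of HNRNPA1, was the 1 hnRNP gene higher by its brightest probe, with -0.76 and -0.31 against 0.46 and 0.35, 1.92-fold (0.94 ± 0.20, adjusted p = 0.0216). This call was lost under spike-in scaling (0.57, 0.100), without the first high-fertile pool (0.086) and without either low-fertile pool (0.063 and 0.055), and the change was 0.25 with normexp. The tested genes not past the threshold, HNRNPA1, HNRNPAB, HNRNPF, HNRNPH1, HNRNPL, HNRNPM, HNRNPUL2 and HNRPDL (now HNRNPDL), changed by -0.18 to 0.40 at their brightest probes.

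Probes of a gene often disagreed. Over all 82 tested member probes 27 were past the threshold, 23 lower and 4 higher, against 26.8%, 17.6% and 9.22% of all tested probes; among the 47 above background on all arrays 13 were lower and 4 higher, against 9.89% and 13.2%. Of 6 member genes with 2 or more probes past the threshold, 3 (HNRNPA1, PRPF6 and SFRS18) had probes past it in opposite directions, and of all 497 such genes 75 (15.1%) did. The opposed probes of HNRNPA1 and SFRS18 were above background on all 4 arrays, whereas the lower PRPF6 probe was tested through the high-fertile group alone. HNRNPA1, a splicing repressor and shuttling protein, gives the clearest series. At its 5′-most and brightest probe the values were 2.58 and 2.62 against 2.59 and 2.85 (0.11 ± 0.16, adjusted p = 0.622 in limma). The second probe read 1.61 and 1.47 against 2.36 and 2.43, 1.81-fold higher (0.86 ± 0.15, adjusted p = 0.0123). The third probe read 1.70 and 1.72 against 2.05 and 2.23 (0.43 ± 0.15, adjusted p = 0.0852). At the 3′-most probe, the order turned, with 3.06 and 3.0 against 1.69 and 2.00, 2.28-fold lower (-1.19 ± 0.17, adjusted p = 0.0073), and after GC correction its change was -0.37. All 4 probes were above background on all arrays.

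Further genes were lower at another probe while their brightest probe did not pass. Each such probe given here entered the test through the high-fertile group alone, where a fall was easier to call. So no pattern along the transcript is drawn from them. SRSF3, the smallest SR protein, read 0.52 and 0.02 against 0.24 and 0.52 at its brightest probe (0.11 ± 0.22, adjusted p = 0.731 in limma), and its groups overlapped. At its 3′-most probe it read -0.58 and -0.43 against -3.57 and -2.43, not well above background on either low-fertile array and at least 3.64-fold lower (adjusted p = 0.0082). HNRNPM, which binds GU-rich introns, read 0.81 and 0.78 against 0.92 and 1.47 at its brightest probe (0.40 ± 0.22, adjusted p = 0.222) and 0.31 and 0.46 against -0.57 and -0.86 at its 3′ probe, 2.14-fold lower (-1.10 ± 0.17, adjusted p = 0.0089). That HNRNPM probe was not above background on the second low-fertile array and was tested through the high-fertile group alone, and after GC correction its change was -0.28. An HNRPDL probe that was not the 3′-most was also not well above background on either low-fertile array, at least 2.78-fold lower (adjusted p = 0.0098), while its brightest probe changed by -0.11. A second SRSF7 probe was at least 1.64-fold lower (adjusted p = 0.0452), and a second HNRNPUL2 probe, 3′ of its brightest, changed by -0.67 (adjusted p = 0.0364). These 3 probes of HNRPDL, SRSF7 and HNRNPUL2 and the 3′-most probe of SRSF3 also entered the test through the high-fertile group alone.

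In 20 member genes with 2 or more tested and placed probes, the change at the 3′-most probe was the lower in 13 (65%), with a median difference from the 5′-most of -0.10. Of all 3016 such genes it was the lower in 56.7%, with a median difference of -0.11. The 3′ probe was lower by over 1 log2 unit in 5 member genes (25%, against 13.9% of all), HNRNPK (-1.85), HNRNPM (-1.49), HNRNPA1 (-1.30), HNRNPC (-1.06) and SRSF3 (-2.34 as fitted, with its 3′ probe not well above background on either low-fertile array). It was higher by over 1 unit in 2 (10%, against 6.76%), PRPF6 (1.78) and SFRS18 (2.20). The GC content of the 3′ probe was lower than that of the 5′ probe in each of those 5 genes, for example 35% against 45% in HNRNPA1 and 38.3% against 45% in HNRNPK. After GC correction the 3′ probe was the lower in 11 member genes (55%), against 49.4% of all, and the difference was -0.59 in HNRNPA1, -1.52 in HNRNPK, -1.63 in SRSF3, -0.35 in HNRNPC and -0.35 in HNRNPM. Both SFRS18 probes hold 45% GC, so its difference stayed at 2.20. For genes above background on all arrays the 3′ probe was the lower in 5 of 9 members and in 58.3% of all 1356, and lower by over 1 log2 unit in 2 members (22.2%) and in 9.0% of all. Of 44 member probes that cross an intron, 17 were tested, of which 5 were lower and 2 higher, beside the 17.6% and 9.22% of all tested probes.

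**Figure D4:**
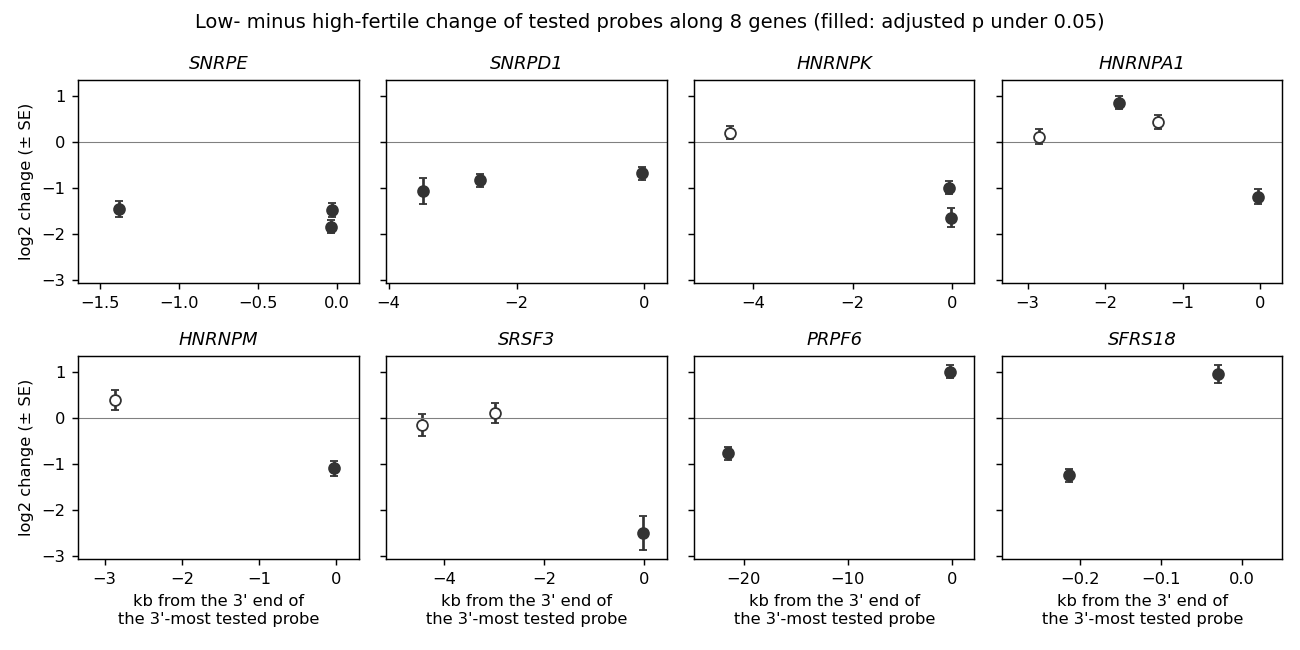
Log2 change, low-fertile minus high-fertile, with its SE (y axis) of each tested probe of 8 genes by the distance of its midpoint from the 3′ end of the 3′-most tested probe (x axis, kb along the cattle genome, introns included); filled points passed an adjusted p of 0.05 in limma. SNRPE and SNRPD1 are lower at each probe, HNRNPK, HNRNPA1, HNRNPM and SRSF3 at the 3′-most tested probe, and PRPF6 and SFRS18 change sign.

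The rest of the pathway was read from lists of genes outside the rule. Of 36 tested spliceosome proteins of other names 5 were lower and 4 higher, of 4 tested genes of the SMN complex and its partners, which load Sm rings onto snRNAs, 1 was lower and 0 higher, of 3 tested SR protein kinases 1 was higher, and of 20 tested splicing regulators 7 were lower and 0 higher (8 and 1 at an unadjusted p under 0.05). Over all genes tested 16.3% were lower and 9.6% higher. Above background on all 4 arrays were 23 of the spliceosome proteins, with 2 lower and 3 higher, and 15 of the regulators, with 2 lower and 0 higher, so 5 of the 7 lower regulators had passed the filter through the high-fertile pools. CLNS1A, which holds Sm proteins before they enter the ring, read 3.19 and 3.22 on the high-fertile and 0.95 and 1.13 on the low-fertile arrays (-2.16 ± 0.15, adjusted p = 0.0022 in limma). SRPK3, a kinase of the type that phosphorylates SR proteins, read 0.58 and 0.69 against 1.80 and 1.97 (1.25 ± 0.15, adjusted p = 0.0049). The groups were apart in both. The other tested genes of the SMN list, DDX20, GEMIN4 and PRMT5, changed by 0.15, -0.01 and -0.14 and did not pass. The median changes of the 4 lists were -0.05, -0.08, 0.43 and -0.17 in that order, against 0.01 for all genes tested.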

How the data were processed

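Sperm RNA of 2 high-fertile and 2 low-fertile pools was read on 4 arrays. The authors quantified the images with Agilent Feature Extraction 11.5.1.1, and the deposited scanner files hold background-subtracted linear intensity, with a surrogate value for spots not above background. A deposited table of log2 values, shifted by the authors to the 75th percentile of each array, served as an alternative. From the scanner files, outlier spots were left out, repeat spots of a probe were averaged as log2, and each array was shifted by its 75th percentile over the 51282 probes that are not controls. A probe was above background where at least 0.5 of its spots were so marked. The 21033 probes above background on both arrays of a group were fitted in limma 3.58.1 (R 4.3.3; Python 3.11.15) with Benjamini-Hochberg adjustment over all of them, and the fit was tested on simulated data. With 2 arrays per group an exact permutation test cannot go below p = 0.333, so no test of single values was made. The p-values and SEs rest on the moderated variance of limma. It joins the spread of a probe between these pools with the spread typical of all fitted probes (3.52 prior degrees of freedom). "Higher" or "lower" means an adjusted p under 0.05 in that fit. A gene was read by its probe with the highest mean normalized signal. "At least" folds are given where neither array of the other group marked the probe as above background: the bright group was set against the mean, over those arrays, of the higher of the probe's own signal and the lowest signal so marked on that array, so that the bound equals the measured fold where the probe's own signals are the higher. Named genes were the Sm, LSm, SF3A, SF3B and U2AF genes, up to 3 lower and 3 higher genes past the threshold per other family, and genes whose probes passed it in opposite directions; other genes given with values were added after these were seen. Members and lists were chosen with earlier results of these data known. Current symbols came from a RefSeq gene table, which matched 203 of 228 member probes by accession. Strand was taken from the order of the coordinates in the files: AATAAA was in 19.0% of 3′-most and 2.53% of 5′-most probes of 4639 genes with 3 or more probes. How well cattle probes match buffalo transcripts or near-identical gene copies was not tested. The number of arrays limits the precision.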

Additional observations from a re-analysis of the deposited data

How the results depend on the processing

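The 19 fits (1 as reported, 18 alternatives) were compared on the number of member genes called, on their median change and on 25 named genes. Of 445 values of named genes under an alternative, 365 gave the same direction and call, 42 kept the direction but lost the call, 19 gained it and 19 changed sign. The gains were of U2AF1 in 6 alternatives, SF3B5 in 4, SNRPB and U2AF2 in 3 each, and SF3B3, SNRPG and LSM7 in 1 each. Spike-in scaling gave 22 member genes called (21 lower, 1 higher) and a median change of -0.52. Without a filter on dim probes 0 of 77 were called by limma (16 at an unadjusted p under 0.05), 0 lower and 0 higher, with a median of 0.11, and the count was also 0 for the 4 other splicing lists (28 unadjusted) and all probes (9278 unadjusted). A t-test, which the methods name, run here with equal variances, called 0 member genes after Benjamini-Hochberg (13 unadjusted), 0 genes of the 4 other splicing lists (14 unadjusted) and 0 probes (6084 unadjusted). With only probes above background on all 4 arrays, 4 member genes were higher, the median was 0.11 and 11 genes of the 4 other splicing lists were called, against 18 of 63 in the reported fit. An intensity trend, leaving out bright patches and GC correction each gave 4 higher genes, and GC correction a median of 0.17. Reading each gene by the median of its probes gave a median of -0.36 and 11 genes of the other lists. Leaving out 1 pool at a time, member genes called ranged from 8 to 13, lower from 6 to 11, higher from 1 to 3, those above background on all arrays from 7 to 11, genes of the other lists from 10 to 17 and all probes from 2640 to 4989 (5632 as reported). Member genes called and lower, and all probes, were fewest without the second high-fertile pool. A replicate block called 15 member genes, 13 lower and 2 higher; the pool numbers share only a name, since same-numbered pools did not deviate together (r = 0.0055 across probes).

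Changes of sign were of genes not past the threshold, except SFRS18 (0.37 by the median of its probes) and SNRPN (0.17 after GC correction). HNRNPA1 was -0.0472 with normexp, -0.26 with spike-in scaling and between -0.0192 and 0.25 when a pool was left out. LSM7 was -0.0439 with normexp, -0.19 with spike-in scaling and between -0.13 and 0.49 with a pool left out. By the median of its probes LSM7 was 1.09, its largest value. Spike-in scaling lowered the change of every gene by the same amount, and under it LSM6 was -0.0218, SF3B1 -0.17 and SNRPD2 -0.25. By the median of probes SF3B1 was -0.28, SF3B14 0.14 and U2AF2 0.22. After GC correction SF3B14 was 0.18, SF3B4 0.0252, SF3B5 0.21 and SNRPG 0.11, and SF3B4 was between -0.23 and 0.0495 with 1 pool absent. Apart from the common shift of spike-in scaling, the cause of these turns was not tested. SNRPE, SF3A3, SRSF9, PRPF4 and HNRNPK kept their call in each alternative that tested them but the unfiltered fit and that t-test, though not their size: SNRPE was -0.65 and SRSF9 -0.91 after GC correction, and SF3A3 was -1.49 and SRSF9 -0.92 with normexp. The normexp fit added a constant to every signal, which by itself makes log2 changes smaller, so its sizes are not on a par with those reported. Signal over background was limited on the second low-fertile array, which had 13033 probes above background against 23228 to 25642 on the others. A slide block was not run, since all arrays lie on 1 slide.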
